A study of Homo sapiens with 6 samples.

Results

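The fibrinogen chain genes FGA, FGB and FGG, the coagulation factor genes F5, F2, F3, F10 and F12, and the anticoagulant genes PROS1 and TFPI were examined in TFK1 cells. They were picked by symbol from the expression table, 10 of the 23569 genes in it, and all 10 were listed and passed the filter on low values. TFK1 is a human cholangiocarcinoma cell line, established from a carcinoma of the bile duct. STUB1, an E3 ubiquitin ligase that works with chaperones, was overexpressed in these cells to find genes that respond to it, in a study of DNA methylation and gene silencing. The oeNC group (3 libraries) was TFK1 carrying the negative control of the lentiviral vector, and the oeSTUB1 group (3 libraries) was TFK1 carrying the STUB1 coding sequence in the lentiviral pHAGE vector. Both groups were stable cell populations selected with puromycin after transduction, and no further treatment of them is named. The sources do not say whether the replicates were separate transductions or cultures. The error over replicates therefore covers the spread between these libraries, which may be technical.

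Coagulation is a chain of proteases that ends in thrombin, which cuts fibrinogen into fibrin, the mesh of a clot. Tissue factor starts the chain by binding factor VII, activated factor X then joins factor V on a membrane to turn prothrombin into thrombin, and tissue factor pathway inhibitor and protein S hold it back. Most of these proteins reach the plasma from hepatocytes, and bile duct cancers are known to carry a raised risk of thrombosis.

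Expression was given as FPKM, fragment numbers divided by gene length and library total, so that levels can be compared between genes. Because the 10 genes were chosen with results of the same contrast known, their differences are given as a description, with no test. Whole fragments could be recovered from the FPKM values, and library totals were 33106564 to 36744521 fragments. Replicates of oeNC differed from each other by a chi-square per degree of freedom of 3.48 to 10.4, whereas oeSTUB1 replicate 2 differed from the other oeSTUB1 libraries by 82.6 and 76.7. It stood apart, so the values of all 10 genes without it are given below. STUB1 itself rose from 32.9, 33.0 and 30.9 FPKM in oeNC to 61.4, 75.0 and 61.9 FPKM in oeSTUB1, a log2 fold change of 1.03 (SE 0.10, adjusted p = 0.00064, limma). It came to 0.96 with quantile normalization, and to 0.99 and 0.93 when oeNC replicate 3 or oeSTUB1 replicate 2 was left out, which is under the fold minimum of 1. Reads of the vector and of the endogenous gene were counted together.

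The cells' markers went partly with the label. KRT7, a biliary keratin, was at 482 to 527 FPKM in oeNC and at 587 to 872 FPKM in oeSTUB1 (log2 fold change 0.47, adjusted p = 0.082, limma). KRT19, also a biliary keratin, was low, and rose from 0.374 to 0.529 FPKM in the oeNC libraries to 2.51 to 3.41 FPKM in the oeSTUB1 libraries (log2 fold change 2.47, adjusted p = 0.00018, limma). The summed level of 9 biliary epithelial markers was 7431 to 8008 FPKM in oeNC and 4733 to 6272 FPKM in oeSTUB1, most of it the general epithelial keratins KRT8 and KRT18. Of 8 hepatocyte markers, 6, with ALB among them, did not pass 0.141 FPKM in any library, and the other 2, CPS1 and ASGR1, brought the sum to 99.8 to 106 FPKM in oeNC and 34.2 to 52.6 FPKM in oeSTUB1. All 6 endothelial markers, PECAM1 included, stayed at or under 0.221 FPKM. Platelet markers, which would mark blood cells, summed to 1.09 to 1.15 FPKM in oeNC and 0.658 to 1.04 FPKM in oeSTUB1, most of it ITGA2B, and PF4 was at 0 in every oeNC library and at most 0.0281 FPKM in oeSTUB1. PPBP, of the same list, had means of 0.0511 and 0.219 FPKM and was called higher (log2 fold change 1.09, adjusted p = 0.036, limma) in 5 of 15 settings. Summed fibroblast markers were at 1.28 to 2.32 and 2.05 to 3.92 FPKM, and macrophage markers at 32.4 to 34.7 and 25.9 to 26.5 FPKM. The biliary, hepatocyte, platelet and macrophage sums were thus lower in oeSTUB1, like the coagulation genes, though KRT7, KRT19 and PPBP were higher. Of the 4 tested macrophage markers only 1, CD68, was lower (log2 fold change -0.50, adjusted p = 0.003, limma). PTPRC, LYZ and CD14 had log2 fold changes of 0.58, 0.55 and 0.06 (adjusted p = 0.29, 0.39 and 0.83, limma). The part of these markers in the values below was not tested. In RNA from whole cultures, fewer cells expressing a gene and less of its RNA per cell cannot be told apart.

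The upstream sequences of the fibrinogen genes are shown first, because these 3 genes lie side by side and were the most highly expressed of the 10. Sequences were taken from the RefSeq table of GRCh38.p14, which held all 10 genes, and each covers the 250 bases before the annotated start. FGB had 2 windows there, and the one at its RefSeq gene start was used. FGB lies on the plus strand of chromosome 4 (4:154562980-154572807), followed 10319 bases on by FGA on the minus strand (4:154583126-154590742) and, after a further 13394 bases, by FGG on the minus strand (4:154604136-154612656). The windows are chr4:154590743-154590992 on the minus strand for FGA, chr4:154562730-154562979 on the plus strand for FGB and chr4:154612657-154612906 on the minus strand for FGG, and are written 5′ to 3′ along the gene. Capitals mark matches, on either strand, to CTGGGAA (the element of interleukin-6 response genes read by STAT3) and to TTGCNNAA (C/EBP).
FGA: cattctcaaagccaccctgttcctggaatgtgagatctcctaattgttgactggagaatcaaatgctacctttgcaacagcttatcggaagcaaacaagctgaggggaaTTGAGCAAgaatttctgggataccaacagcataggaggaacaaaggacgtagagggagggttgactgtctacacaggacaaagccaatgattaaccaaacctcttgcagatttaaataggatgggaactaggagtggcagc
FGB: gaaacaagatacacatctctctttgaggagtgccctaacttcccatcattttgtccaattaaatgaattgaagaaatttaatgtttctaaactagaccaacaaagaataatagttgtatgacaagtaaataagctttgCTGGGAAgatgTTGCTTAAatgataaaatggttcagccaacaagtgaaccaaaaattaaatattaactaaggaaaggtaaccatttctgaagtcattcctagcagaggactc
FGG: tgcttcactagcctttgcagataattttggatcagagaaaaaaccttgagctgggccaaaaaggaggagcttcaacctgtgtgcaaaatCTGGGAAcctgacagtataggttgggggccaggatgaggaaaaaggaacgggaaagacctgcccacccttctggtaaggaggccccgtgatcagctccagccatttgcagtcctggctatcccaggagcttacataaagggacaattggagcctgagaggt
FGB held CTGGGAA at -112 to -106 from the start and FGG at -161 to -155, and TTGCNNAA lay in FGA at -141 to -134 and in FGB at -101 to -94. None of these matches overlapped another. Among the 27305 windows of the same length in the table, 9.30% held CTGGGAA and 9.13% held TTGCNNAA. The matches describe the letters of the window and are no evidence of binding.

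All 3 fibrinogen chain genes, which encode the Aα, Bβ and γ chains of the secreted hexamer, were lower in oeSTUB1. FGB was at 99.6, 98.7 and 94.2 FPKM in oeNC and at 54.0, 61.6 and 73.7 FPKM in oeSTUB1, or 97.5 ± 2.86 against 63.1 ± 9.93 (SD, n = 3). The log2 fold change of FGB was -0.64 (SE 0.12). Every oeNC library was above every oeSTUB1 library, and the oeSTUB1 libraries were the more spread. FGG was at 90.7, 90.2 and 87.8 FPKM in oeNC and at 55.4, 69.4 and 71.4 FPKM in oeSTUB1, a mean of 89.6 ± 1.57 against 65.4 ± 8.72 (SD, n = 3). Its log2 fold change was -0.46 (SE 0.11), and again the groups did not overlap. FGA was at 57.7, 57.8 and 63.1 FPKM in oeNC and at 40.4, 43.3 and 55.0 FPKM in oeSTUB1, a mean of 59.5 ± 3.12 against 46.2 ± 7.71 (SD, n = 3). Its log2 fold change was -0.38 (SE 0.12), and the highest oeSTUB1 library lay just under the lowest oeNC library.

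**Figure D1:**
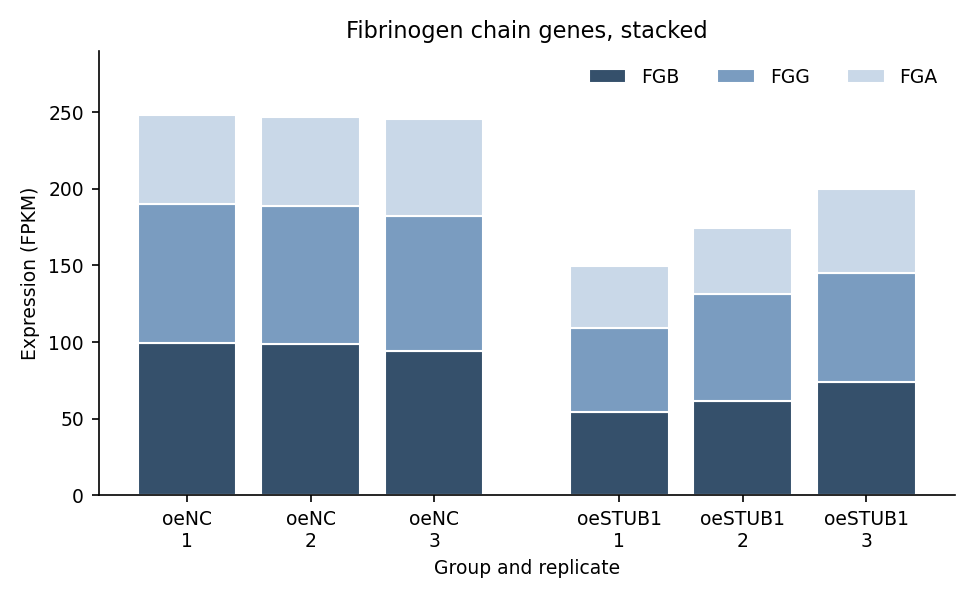
Stacked bars of the FPKM of FGB, FGG and FGA (vertical axis) in each of the 3 oeNC and 3 oeSTUB1 libraries (horizontal axis). The summed height was 245 to 248 FPKM in oeNC and 150 to 200 FPKM in oeSTUB1, with replicate 1 lowest and replicate 3 highest in oeSTUB1.

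Added up, the chains reached 247 ± 1.40 FPKM in oeNC and 175 ± 25.2 FPKM in oeSTUB1 (SD, n = 3), which in fragments was 0.0598% to 0.0605% of an oeNC library and 0.0374% to 0.0501% of an oeSTUB1 library. FGB made up 38.4% to 40.2% of the sum in oeNC and 35.3% to 36.9% in oeSTUB1, the 1 chain whose share did not overlap between the groups. FGG made up 36.3% ± 0.448 and 37.5% ± 2.12, and FGA 24.2% ± 1.39 and 26.4% ± 1.40 (SD, n = 3). As shares of 1 sum these values are not independent of each other. PLRG1, the next gene before FGB at 12580 bases, had a mean of 18.2 ± 1.44 FPKM in oeNC against 19.7 ± 1.12 FPKM in oeSTUB1 (SD, n = 3), with an adjusted p of 0.43 (limma). This neighbour was looked at after its values were known.

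F5 showed the widest difference of the 10. It encodes factor V, the cofactor with which activated factor X turns prothrombin into thrombin, and lies on the minus strand of chromosome 1 (1:169511951-169586481). F5 was at 13.6, 14.4 and 14.7 FPKM in oeNC and at 1.20, 0.625 and 1.62 FPKM in oeSTUB1. The means were 14.2 ± 0.573 and 1.15 ± 0.498 FPKM (SD, n = 3), 12.4-fold lower in oeSTUB1, with a log2 fold change of -3.61 (SE 0.28). The libraries held 4368, 4631 and 4999 F5 fragments in oeNC and 383, 192 and 513 in oeSTUB1, so that both levels rested on many fragments. The log2 fold change was -3.26 without oeSTUB1 replicate 2, the library with the least F5. The neighbouring gene SLC19A2, 25981 bases away, had a log2 fold change of -0.11 (adjusted p = 0.55, limma) and was looked at after its values were known.

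F10, which encodes factor X, the protease at which the intrinsic and extrinsic pathways meet, showed the next widest difference. It lies on the plus strand of chromosome 13 (13:113122799-113149529). F10 was at 0.732, 0.601 and 0.797 FPKM in oeNC and at 0.0945, 0.0590 and 0.114 FPKM in oeSTUB1, from 39, 32 and 45 fragments against 5, 3 and 6. The means were 0.710 ± 0.0999 and 0.0893 ± 0.0280 FPKM (SD, n = 3), with a log2 fold change of -2.10 (SE 0.21). The ratio of the summed fragments, scaled to library totals, was 7.94 with an exact 95% interval of 4.55 to 15.0, which covers counting error alone. Expression was thus low in both groups and close to the 3 fragments per library taken as the counting floor in oeSTUB1, though the groups did not overlap.

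The other procoagulant genes differed less or overlapped. F2 encodes prothrombin and lies on the plus strand of chromosome 11 (11:46719213-46739506). F2 was at 1.29, 1.17 and 1.03 FPKM in oeNC and at 0.817, 1.00 and 0.706 FPKM in oeSTUB1, from 75 to 89 and 48 to 66 fragments, with a log2 fold change of -0.43 (SE 0.17). The groups were separated by a narrow margin, between 1.03 and 1.00 FPKM. F3 encodes tissue factor, the membrane receptor that starts coagulation, and lies on the minus strand of chromosome 1 (1:94529173-94541759). F3 was at 1.43, 1.15 and 1.71 FPKM in oeNC and at 1.29, 1.55 and 0.790 FPKM in oeSTUB1, with a log2 fold change of -0.26 (SE 0.25). Its groups overlapped, and without oeSTUB1 replicate 3 the log2 fold change was 0.00. F12 encodes factor XII, which starts the contact pathway, and lies on the minus strand of chromosome 5 (5:177402141-177409564). F12 was at 4.02, 3.79 and 3.44 FPKM in oeNC and at 3.02, 4.40 and 3.33 FPKM in oeSTUB1, with a log2 fold change of -0.08 (SE 0.15). Its highest and its lowest library were both oeSTUB1 libraries, and the log2 fold change was 0.03 without oeSTUB1 replicate 1.

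**Figure D2:**
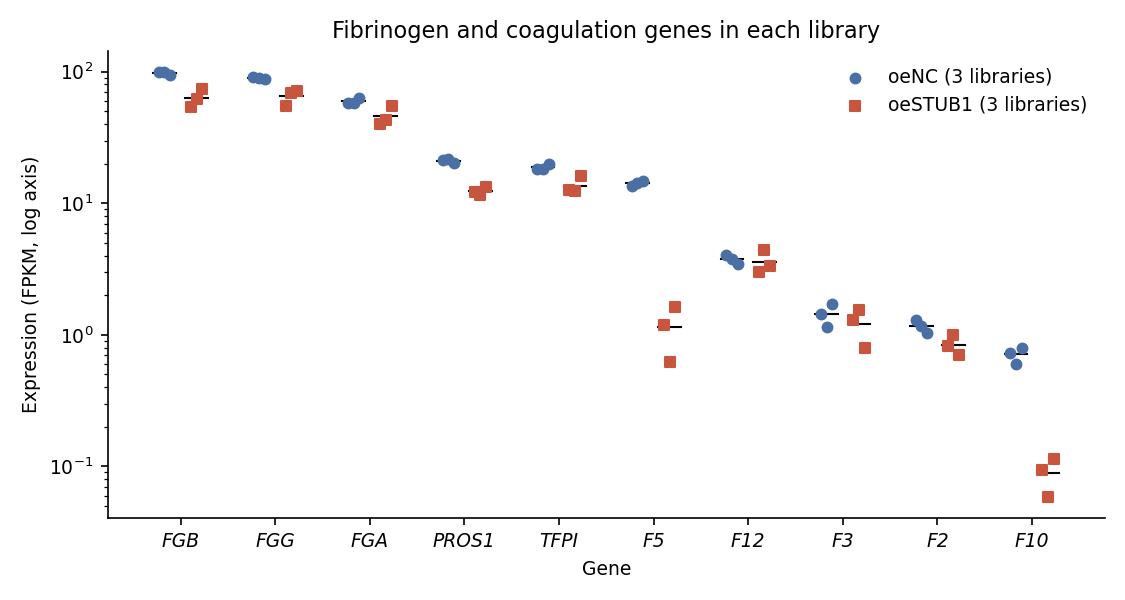
FPKM on a log axis (vertical) of the 10 genes (horizontal, by falling oeNC mean) in each oeNC library (circles) and oeSTUB1 library (squares), with group means as black bars. The groups stand clear of each other for 8 genes and overlap for F3 and F12, and F5 lies near TFPI in oeNC but near F3 and F2 in oeSTUB1.

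The anticoagulants were lower as well. PROS1 encodes protein S, the cofactor of activated protein C and of tissue factor pathway inhibitor, and lies on the minus strand of chromosome 3 (3:93873051-93973896). PROS1 was at 21.2, 21.6 and 20.3 FPKM in oeNC and at 12.3, 11.6 and 13.3 FPKM in oeSTUB1. The means were 21.0 ± 0.704 and 12.4 ± 0.863 FPKM (SD, n = 3), 1.70-fold lower in oeSTUB1, with a log2 fold change of -0.76 (SE 0.08). Among the 10 genes its libraries agreed best within groups, and the groups were far apart relative to that spread. TFPI encodes tissue factor pathway inhibitor, which blocks activated factor X and the complex of tissue factor with factor VII, and lies on the minus strand of chromosome 2 (2:187464230-187554435). TFPI was at 18.3, 18.1 and 19.8 FPKM in oeNC and at 12.6, 12.3 and 16.1 FPKM in oeSTUB1, or 18.7 ± 0.932 against 13.7 ± 2.09 (SD, n = 3). Its log2 fold change was -0.46 (SE 0.11), with no overlap between the groups. The median log2 fold change of the 1031 tested genes on chromosome 2 was -0.21, whereas it was 0.02 to 0.07 on the chromosomes of the other members, and the part of this in the TFPI value was not tested. The RNAs F10-AS1 and CALCRL-AS1, which overlap F10 and TFPI, had at most 8 fragments in any library.

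**Figure D3:**
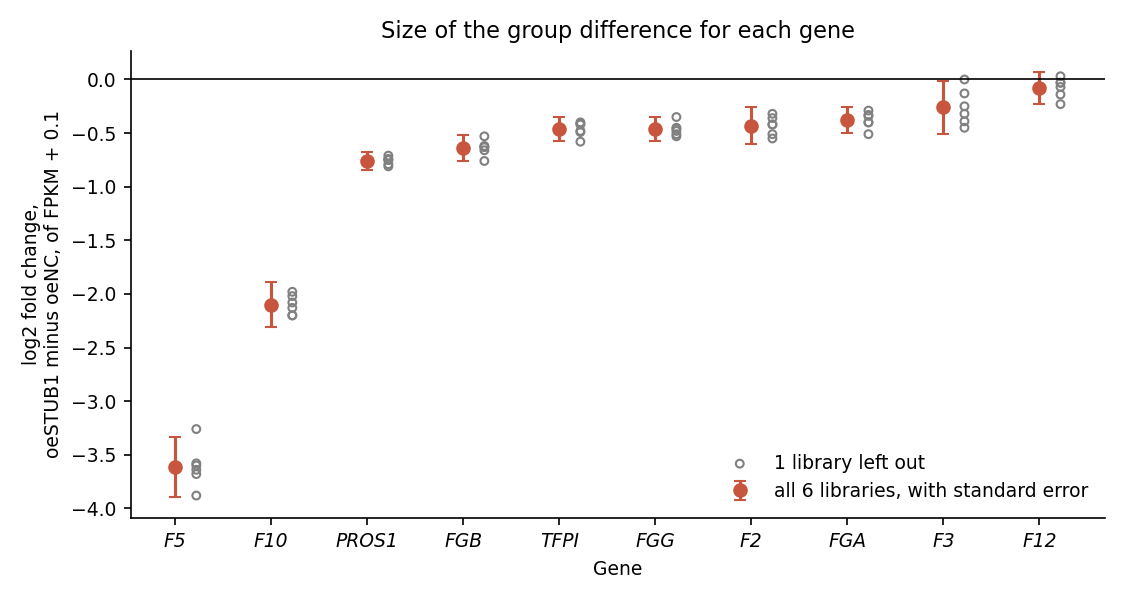
log2 fold change, oeSTUB1 minus oeNC, on log2(FPKM + 0.1) (vertical) for each of the 10 genes (horizontal), as points with standard error, beside the values with each of the 6 libraries left out in turn (open circles). F5 and F10 lie beyond -1 in every case, and open circles reach or cross 0 for F3 and F12.

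Across the 10 genes the log2 fold change was below 0 in all 10, with a median of -0.46, while it was 0.019 over all 15353 genes tested, of which 47.35% were below 0. By the call rule, an adjusted p under 0.05 with an absolute log2 fold change over 1, 2 of the 10 were lower (F5 and F10), where 2.40% of all tested genes were lower, and 0 were higher, where 2.79% were, or 5.20% in both directions together. Without the fold minimum the count was 6 lower (FGB, FGG, F5, F10, PROS1 and TFPI) and 0 higher, where 6.59% of all genes were lower and 7.01% higher (13.6% together). That count of 6 was 3 without oeNC replicate 1 or without oeNC replicate 2. The 3 oeNC values lay all above the 3 oeSTUB1 values in 8 of the 10, and in 17.3% of all genes, and the reverse held for 0 of the 10 and 21.5% of all genes. Nothing is read from these counts, because the same contrast was known when the genes were picked. Without oeSTUB1 replicate 2 the log2 fold changes were -0.34 (FGA), -0.63 (FGB), -0.51 (FGG), -3.26 (F5), -0.55 (F2), -0.45 (F3), -1.98 (F10), -0.23 (F12), -0.71 (PROS1) and -0.40 (TFPI), all below 0.

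The order of the levels differed between the groups. In oeNC it ran FGB, FGG, FGA, PROS1, TFPI, F5, F12, F3, F2 and F10, and only the neighbours F3 and F2 had overlapping ranges. In oeSTUB1 it ran FGG, FGB, FGA, TFPI, PROS1, F12, F3, F5, F2 and F10, and ranges overlapped between the neighbours FGG and FGB, FGB and FGA, TFPI and PROS1, F3 and F5, and F5 and F2. F5 ranked 3625 among the genes of the table by mean FPKM in oeNC and 11049 in oeSTUB1, and F10 ranked 11971 and 15397. FGB ranked 457 and 826, so that the fibrinogen genes stayed among the highly expressed genes of the cell line in both groups. The highest of the 10 mean levels was 137-fold above the lowest in oeNC and 733-fold above it in oeSTUB1.

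The upstream windows of F5 and F10, the genes with the widest differences, and of F3, with overlapping groups, are shown for their CG dinucleotides, the sites at which DNA can be methylated. Methylation of these windows was not analysed here. They are chr1:169586482-169586731 on the minus strand, chr13:113122549-113122798 on the plus strand and chr1:94541760-94542009 on the minus strand of GRCh38.p14, 5′ to 3′ along the gene, with every CG in capitals.
F5: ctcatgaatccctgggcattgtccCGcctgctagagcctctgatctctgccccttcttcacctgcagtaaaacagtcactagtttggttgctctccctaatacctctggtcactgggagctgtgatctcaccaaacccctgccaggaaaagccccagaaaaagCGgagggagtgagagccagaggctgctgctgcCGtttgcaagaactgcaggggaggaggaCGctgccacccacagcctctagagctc
F10: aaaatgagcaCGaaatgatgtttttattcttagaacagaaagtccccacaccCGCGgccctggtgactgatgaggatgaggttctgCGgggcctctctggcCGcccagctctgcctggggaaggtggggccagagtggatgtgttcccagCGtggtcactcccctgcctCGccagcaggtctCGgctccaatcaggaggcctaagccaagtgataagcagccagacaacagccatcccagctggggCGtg
F3: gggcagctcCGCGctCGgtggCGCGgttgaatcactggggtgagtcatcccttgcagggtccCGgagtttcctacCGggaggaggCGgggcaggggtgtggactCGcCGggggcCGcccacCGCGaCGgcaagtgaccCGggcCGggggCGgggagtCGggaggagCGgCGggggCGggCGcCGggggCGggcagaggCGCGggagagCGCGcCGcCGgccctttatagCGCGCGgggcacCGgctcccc
The F5 window held 4 CG dinucleotides, the F10 window 9 and the F3 window 34. Over all 27305 windows the median was 11, with quartiles at 3 and 23, and 93.4% of windows held fewer than F3. The other members held 0 (FGB), 1 (F12), 2 (FGA, FGG and TFPI), 3 (F2) and 9 (PROS1), so that 9 of the 10 lay below the median.

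**Figure D4:**
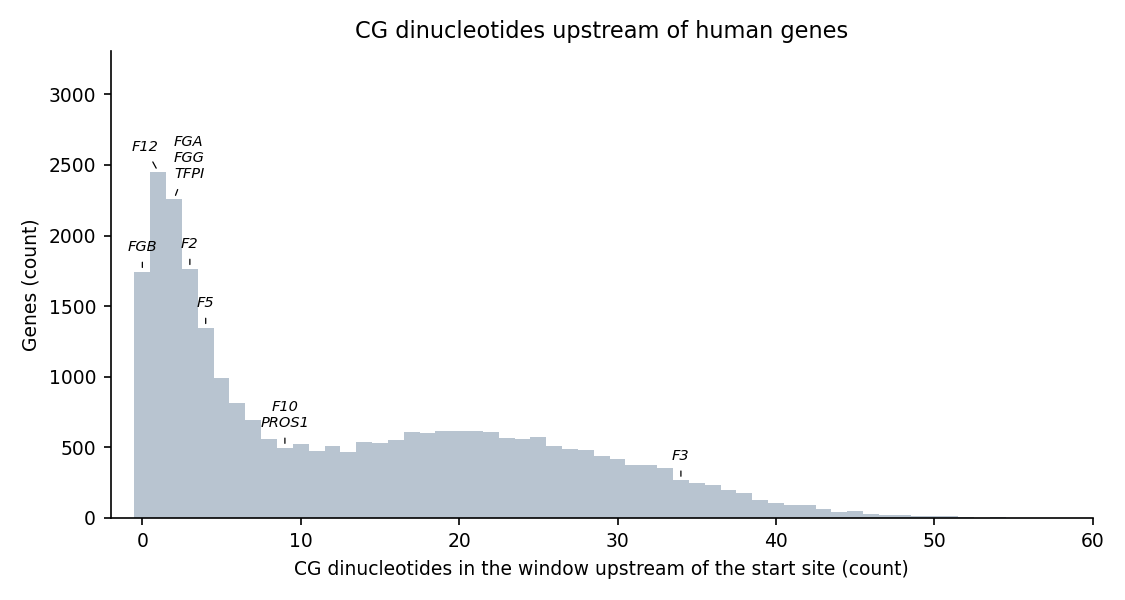
Number of genes (vertical) by the count of CG dinucleotides in the 250 bases before the annotated start (horizontal), over 27305 RefSeq windows, 1 for each gene symbol, with the 10 genes marked above their bars. FGB has 0, F3 has 34 and stands alone in the upper part of the distribution, and the other 8 lie at 1 to 9.

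In the other windows, searched on both strands, F10 held CTGGGAA at -107 to -101. TGTTTAC (FOXA) was found in PROS1 at -126 to -120, as in 2.98% of windows, and TGAGTCA (AP-1) in F3 at -210 to -204, as in 4.16%. GGGCGG (the GC box) lay in F3, F10 and PROS1, as in 42.3%, and TATAAA (the TATA box) in F3 at -28 to -23, as in 11.1%. That TATAAA match was on the strand opposite to the gene. CAAAGTCC (a half-site of HNF4), which 1.02% of windows held, was not among the letters of these 10 windows.

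The rest of the clotting pathway was read from lists of genes grouped by function, which were chosen with earlier results of these data known. Their counts are therefore a description. By the same call rule 2.40% of all tested genes were lower and 2.79% higher. Of 9 other clotting factors, 3 passed the filter on low values, 1 of them fell and 0 rose (limma and limma-voom), and 0 were higher at an unadjusted p under 0.05. The gene that fell was F7, which encodes factor VII, the partner of tissue factor. F7 went from 1.40, 1.46 and 1.52 FPKM in oeNC to 0.352, 0.306 and 0.441 FPKM in oeSTUB1, a log2 fold change of -1.75 (SE 0.16, adjusted p = 0.0006, limma). F7 lies 2114 bases before F10 on chromosome 13, and both were lower in every oeSTUB1 library, while PCID2 on the other side of F10 was at 3.80 ± 0.121 and 3.71 ± 0.0918 FPKM (SD, n = 3), with an adjusted p of 0.84 (limma, looked at after its values were known). F8, which encodes factor VIII, had a log2 fold change of 0.30 (adjusted p = 0.26, limma), and F13B, the carrier subunit of factor XIII, 0.15 (adjusted p = 0.80, limma). F11, F13A1, VWF, KLKB1 and KNG1 were under the filter, and F9 was not analysed here.

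Among 16 anticoagulant and thrombin receptor genes, 11 were tested, 1 fell and 1 rose. F2RL2, a protease-activated receptor for thrombin, fell from 12.54, 11.89 and 11.04 FPKM to 2.97, 2.13 and 3.13 FPKM, a log2 fold change of -2.08 (SE 0.15, adjusted p = 0.0002, limma). THBD, which encodes thrombomodulin, the endothelial thrombin receptor that activates protein C, rose from 0.114, 0.114 and 0.189 FPKM to 0.711, 0.583 and 0.775 FPKM, a log2 fold change of 1.73 (SE 0.21, adjusted p = 0.002, limma). The other thrombin and protease receptors F2R and F2RL1 were at 33.8 and 48.6 FPKM in oeNC and 17.6 and 26.8 FPKM in oeSTUB1 on average. Their log2 fold changes of -0.93 and -0.86 passed the adjusted p (0.00026 and 0.0007, limma) but not the fold minimum, and both were named after their values were seen. TFPI2, a relative of TFPI and the most abundant gene of the list, had a log2 fold change of 0.25 (adjusted p = 0.23, limma), opposite in sign to TFPI, and ANXA5, which covers procoagulant phospholipid, 0.09 (adjusted p = 0.58, limma).

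Of 12 fibrinolysis genes, 9 were tested, 3 rose and 0 fell (limma and limma-voom), with 1 lower at an unadjusted p under 0.05. That gene, SERPINF2, had a log2 fold change of -0.67 (SE 0.18). It passed the adjusted p (0.047, limma) but not the fold minimum, and did not pass the adjusted p with limma-voom. Values are given for 2 of the 3 that rose. SERPINE2, an inhibitor of thrombin and of plasminogen activators, rose from 6.96, 6.97 and 6.73 FPKM to 14.9, 15.9 and 13.2 FPKM, a log2 fold change of 1.07 (SE 0.09, adjusted p = 0.00042, limma). PLAT, tissue plasminogen activator, rose at low levels, from 0.367, 0.151 and 0.187 FPKM to 0.919, 0.671 and 0.545 FPKM, with a log2 fold change of 1.31 (SE 0.29, adjusted p = 0.023, limma) that was not called in 5 of the 14 other settings. Among these were leaving out oeNC replicate 2 (adjusted p = 0.087), oeNC replicate 3 or oeSTUB1 replicate 1. These 2 genes thus include both an activator and an inhibitor of fibrinolysis. S100A10 and ANXA2, which together bind plasminogen at the cell surface, had log2 fold changes of -0.23 and 0.02 (adjusted p = 0.33 and 0.92, limma).

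The cellular machinery for clotting factors was taken as 10 genes that carboxylate, fold or export them. All 10 were tested, and 0 passed the call rule or the adjusted p alone (limma), while 1 lower and 4 higher genes had an unadjusted p under 0.05. With limma-voom on fragments 0 were called and 1 passed the adjusted p alone. The chaperone genes CALR and P4HB, the most abundant, had log2 fold changes of 0.18 and 0.24 (adjusted p = 0.24 and 0.11, limma). Of 17 genes with a domain like that of fibrinogen, 6 were tested, 1 fell and 0 rose (limma and limma-voom), with 0 higher at an unadjusted p under 0.05. The gene that fell was TNXB, tenascin X, with a mean of 0.317 ± 0.0262 FPKM in oeNC against 0.0964 ± 0.0425 FPKM in oeSTUB1 (SD, n = 3), with a log2 fold change of -1.11 (SE 0.24, adjusted p = 0.022, limma). Reads of TNXB may be shared with its near-identical pseudogene TNXA, and the call was made in 9 of 15 settings and lost on leaving out any library but oeSTUB1 replicate 3. FGL1, a secreted liver protein, and ANGPTL4, an inhibitor of lipoprotein lipase, had log2 fold changes of 0.12 and -0.53 (adjusted p = 0.63 and 0.039, limma).

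**Figure D5:**
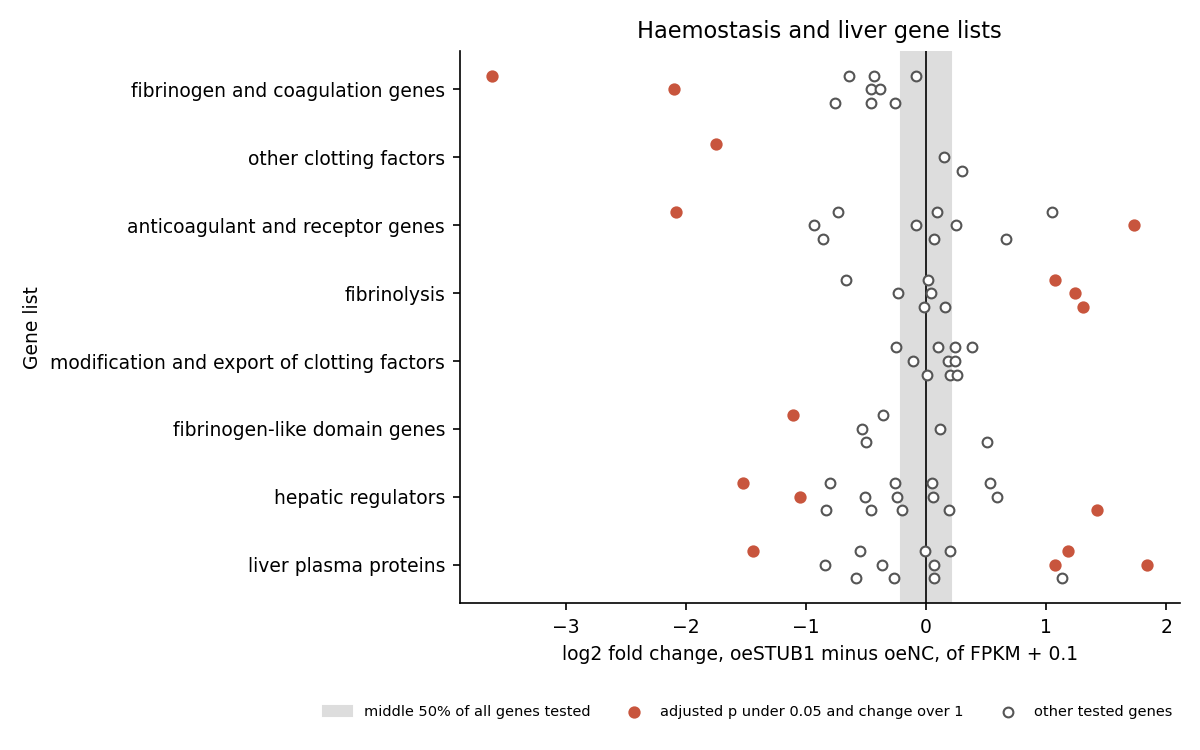
log2 fold change, oeSTUB1 minus oeNC, on log2(FPKM + 0.1) (horizontal) of each tested gene of the 10 and of the 7 other lists (vertical), filled where the call rule was passed. The shaded band holds the middle 50% of all 15353 genes tested; calls lie on both sides of 0 in the anticoagulant, hepatic regulator and liver plasma lists, and on the higher side alone in fibrinolysis.

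Liver transcription factors and cytokine signal genes, which are known to drive fibrinogen and clotting factor genes in hepatocytes, were counted next. Of 16 such genes 15 were tested, 2 fell and 1 rose. HNF4A fell from 11.1, 11.3 and 10.1 FPKM to 5.44, 4.30 and 5.87 FPKM, a log2 fold change of -1.05 (SE 0.13, adjusted p = 0.0018, limma), which was under the fold minimum without oeSTUB1 replicate 2. NR1H4, the bile acid receptor, fell from 1.49, 1.48 and 1.53 FPKM to 0.468, 0.364 and 0.560 FPKM, a log2 fold change of -1.52 (SE 0.17, adjusted p = 0.0012, limma). NR5A2, a nuclear receptor of liver and pancreas, rose from 3.74, 3.71 and 3.44 FPKM to 10.68, 9.001 and 10.07 FPKM, a log2 fold change of 1.42 (SE 0.10, adjusted p = 0.00018, limma). CEBPB and IL6ST, the most abundant of those not called, had log2 fold changes of -0.24 and 0.19 (adjusted p = 0.28 and 0.60, limma).

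Other plasma proteins of the liver went both ways. Of 29 genes 14 were tested, 1 fell and 3 rose. AHSG, fetuin A, fell from 1.19, 1.08 and 1.05 FPKM to 0.147, 0.383 and 0.631 FPKM, a log2 fold change of -1.44 (SE 0.36, adjusted p = 0.035, limma), a call that was lost on leaving out any oeNC library (adjusted p up to 0.12). The acute phase gene SAA1 rose from 0.607, 0.477 and 1.15 FPKM to 2.14, 2.77 and 3.57 FPKM, a log2 fold change of 1.84 (SE 0.30, adjusted p = 0.0068, limma), with reads that may be shared with its near-identical copy SAA2. RBP4, the carrier of retinol, and SERPINA3, an acute phase protease inhibitor, rose with log2 fold changes of 1.18 and 1.07 (adjusted p = 0.012 and 0.0041, limma). RBP4 was not called without oeNC replicate 1 or 2, and SERPINA3 was not called without oeNC replicate 1 or oeSTUB1 replicate 3. The most abundant of those not called, CP (ceruloplasmin) and APOH (a phospholipid-binding plasma protein), had log2 fold changes of -0.37 and -0.55 (adjusted p = 0.25 and 0.063, limma). ALB, the main plasma protein of hepatocytes, was at most 0.0512 FPKM in any library, while FGB in the same libraries was at 54.0 FPKM or more.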

How the data were processed

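Total RNA of 6 TFK1 libraries was sequenced, 3 oeNC and 3 oeSTUB1, grouped by the sample labels. The authors deposited FPKM values for 23569 genes by symbol. The submitters' processing notes name fastp 0.20.1, HISAT2 2.1.0, HTSeq 0.11.2, R 3.2.0, DESeq2 1.22.2 and GRCh38.p13, with no role or order. Whether counting used strand is not given in the sources used here. Value columns of no mapped sample numbered 0.

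Whole fragments were recovered from the steps of the FPKM values for 23569 of 23569 genes, to within 4.9e-06 FPKM, and a gene's fragments may be understated by a common factor. Group differences came from limma 3.58.1 in R 4.3.3 (lmFit, eBayes with trend, two-sided) on log2(FPKM + 0.1) for 15353 genes whose mean FPKM reached 0.1, with Benjamini-Hochberg adjustment over all of them. This scale understates differences of low genes. Genes were called at an adjusted p under 0.05 where the log2 fold change was also beyond 1 in either direction. The scripts were tested on simulated data. Alternatives were other pseudocounts, filters and scalings, eBayes without a trend, a replicate block, limma-voom on fragments, and leaving out each library. DNA windows and positions came from RefSeq GRCh38.p14, which shares the primary assembly of GRCh38.p13. Python 3.11.15 was used for the other steps.

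The 10 genes, the 7 other lists and the markers were chosen with earlier results of these data known. Named were all 10, STUB1, of each other list the called genes (up to 6) and the 2 most abundant not called, and 6 markers. All other genes named (neighbours, overlapping RNAs, near-identical copies, genes under the filter and further markers among them) were chosen after their values were seen. Some genes and sequence motifs that were examined are not reported here.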

Additional observations from a re-analysis of the deposited data

How the results depend on the processing

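In all 15 other settings that could be fitted for them, FGA, FGB, FGG, F5, F2, PROS1 and TFPI stayed below 0, as did F10 in 14. F3 and F12 were each not below 0 in 1 setting. Counting the reported setting, F5 was called in 16 of 16 and F10 in 14 of 15, with a log2 fold change of -0.65 at a pseudocount of 1, which is larger than its FPKM. A pseudocount of 1 and a filter at a mean FPKM of 1, which F10 does not pass, each left 1 of the 10 called. Members past the adjusted p alone numbered 3 to 7 on leaving out 1 library, with 3 without oeNC replicate 1 or 2. They numbered 4 to 6 in the settings that kept all 6 libraries.

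The pseudocount of 1 left 240 genes called (120 lower and 120 higher), and the filter at 1 left 384 (182 lower and 202 higher). Leaving out 1 library gave 625 to 836 (285 to 406 lower, 331 to 448 higher). Under the pseudocount and the filter in turn, calls numbered 0 and 0 of the other clotting factors, 1 and 1 of the anticoagulant and receptor genes, and 0 and 0 of the genes with a domain like fibrinogen. With the pseudocount of 1, 1 fibrinolysis gene, 1 hepatic regulator and 1 liver plasma gene were called. Leaving out 1 library gave 1 to 3 fibrinolysis genes (1 without oeNC replicate 3), 1 to 5 liver plasma genes (1 without oeNC replicate 1 and 2 without oeNC replicate 2) and 0 to 1 genes with a domain like fibrinogen, with 1 without oeSTUB1 replicate 3 and 0 without any other. STUB1 was at 0.93 to 1.08 on leaving out 1 library and 0.96 with quantile normalization. The cause of these shifts was not tested.

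Replicate numbers are shared between the groups, but deviations of same-numbered libraries correlated at -0.05, -0.05 and 0.06, so no pairing was seen. These values cannot tell whether same-numbered libraries were prepared together, and the labels do not say so. With a replicate block, 758 genes were called, 2 of the 10 among them, and 5 of the 10 passed the adjusted p alone.

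Counting depth limits F10, F2 and F3, which rest on 3 to 89 recovered fragments per library, where those of F3 are a lower limit. The RNA was measured at 1 time in 1 cell line, protein was not measured here, and clotting activity was not measured here.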
